A study of Drosophila melanogaster with 9 samples.

Results

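The transcriptome of ovaries from control flies of Drosophila melanogaster, strain w1118, was described from the 3 libraries whose titles carry that strain name, out of 9 libraries in the series. The genotype label of these 3 libraries is control, the labelled tissue is the ovary, and the flies were kept at 25 °C on standard food. Total RNA was extracted with a Direct-zol kit, and the series' design text calls the libraries of a group biological replicates. The age of the flies, their mating state, the number of ovaries per library and the source of each replicate are not stated in the labels. Replicates are called 1, 2 and 3 as in the titles, and no other group of flies was used.

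A fly ovary is a bundle of egg-producing tubes, the ovarioles, in which germline stem cells give rise to interconnected cysts of nurse cells and 1 oocyte. The nurse cells make most of the mRNA, ribosomes and mitochondria that the egg will hold, and deliver them to the oocyte through ring canals. Somatic follicle cells surround each cyst and, late in egg development, secrete the vitelline membrane and the chorion, the layers of the eggshell. Many germline transcripts are stored in a silent form until they are localised within the oocyte or until the egg is activated.

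The 3 libraries held 22289241, 93767502 and 18078883 counts on genes for replicates 1, 2 and 3. The smallest amount taken as measured, a floor of 3 counts in a library, was 0.135, 0.0320 and 0.166 CPM, the counts of a gene scaled to a common library total. Intervals and floors of this kind cover counting error only. Replicate 1 stood apart from the others before any gene was looked at: 70.7% of its table's total lay on the summary line for alignments that were not unique, against 8.02% in replicate 2 and 7.61% in replicate 3. No 2 of the libraries agreed within sampling noise, so none is a second copy of another, and that they are separate biological samples rests on the design text alone. Where 3 values stand together they are those of replicates 1, 2 and 3 in that order, so that each result can be read with and without replicate 1. Values written with ± are means with the SD over the 3 libraries.

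A symbol was found for 17253 of the 17559 gene identifiers, and the 306 others held 4.51% ± 0.0189 of gene counts (SD, n = 3). Genes that lie on top of another gene were hardly measured. Of 278 protein-coding genes with at least 95% of their exon bases covered by another gene's exons on the same strand, 265 had no count in any library. For cover by exons on the opposite strand the number was 81 of 83, whereas among 9292 coding genes without such cover 2573 had no count (27.7%). A listed 0 of a covered gene is therefore no measure of its level. Among the genes this touches are cup, a translational repressor of oskar mRNA, the origin recognition gene Orc3 and the mitochondrial ribosomal gene mRpL53, each listed at 0 and fully covered.

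Most genes of the files were not seen in the ovary at a level above trace. A gene was taken as detected at a level of at least 1 CPM in each of the 3 libraries, which held for 6764 of 17559 identifiers (38.5%) and for 6507 of 13685 protein-coding genes (47.5%). No count in any library was found for 5820 identifiers. Mean levels reached 10 CPM for 5989 genes, 100 CPM for 2472 and 1000 CPM for 128. Detection changed little with the library left out, giving 6805 genes without replicate 1, 6780 without replicate 2 and 6865 without replicate 3.

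Counts were spread over many genes rather than held by a few. The single highest gene took 5.24% ± 1.14 of gene counts, the top 10 took 9.97% ± 1.27 and the top 100 took 25.2% ± 0.676 (SD, n = 3 each). It took 574.3 ± 19.6 genes to reach 50% of the counts, 1874 ± 16.3 to reach 75% and 3486 ± 34.0 to reach 90%. Replicate 1 differed at the very top, where its highest gene held 3.93% of counts, against 6.03% in replicate 2 and 5.75% in replicate 3.

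**Figure D1:**
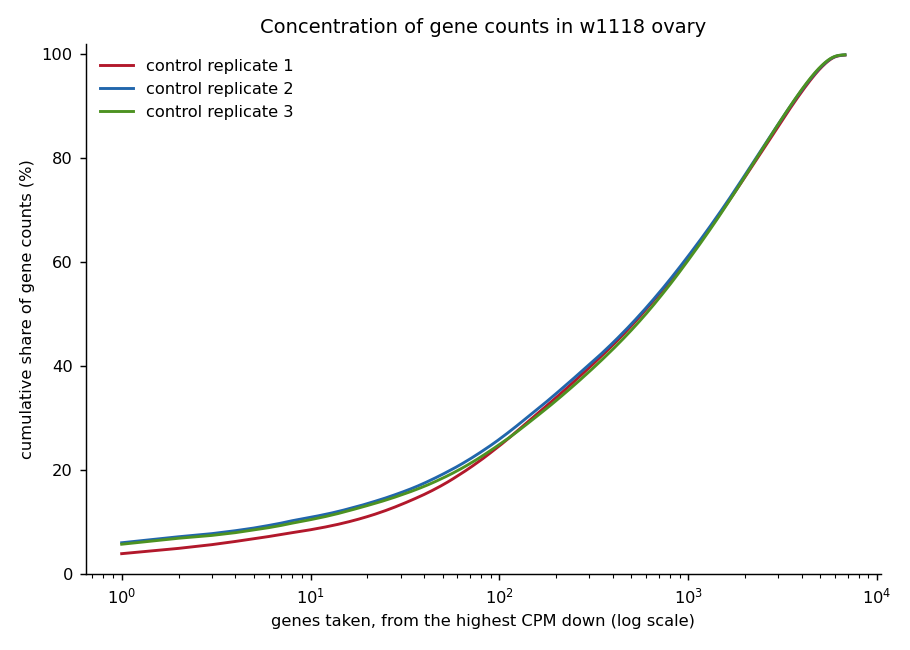
The cumulative share of gene counts (vertical axis, %) is drawn against the number of genes taken from the highest CPM down (horizontal axis, log scale), with 1 line for each control library, over the 6764 genes at 1 CPM or more in all 3. The line of replicate 1 starts lower, at 3.93% for its top gene against 6.03% and 5.75% in replicates 2 and 3, and the 3 lines meet near 100 genes at about 25.2%.

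By counts alone, the top of the ranking joined mitochondrial transcripts with maternal products of the germline. The large mitochondrial ribosomal RNA, mt:lrRNA, was first with 39322, 60324 and 57494 CPM. Second was FBgn0000556, one of the identifiers with no symbol in the tables used here, at 10186, 11533 and 11484 CPM. The next, dhd (X, 5312171 to 5313125, plus strand, BDGP6.54), encodes the germline thioredoxin deadhead, which acts on sperm chromatin at fertilisation, and had 7166, 5996 and 5458 CPM. All 3 libraries placed these genes far above RpS3A, the gene at rank 10, with a mean of 3066 ± 319 CPM.

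Next in the ranking came me31B, an RNA helicase that keeps stored maternal mRNAs silent, with 6170.1, 4979 and 4439 CPM in replicates 1, 2 and 3. CycB, the cyclin B gene, had 4284, 5087 and 5172 CPM, and tral, whose product sits in the same RNA particles as Me31B, had 2429, 2736 and 3432 CPM. The 20 highest genes by mean CPM also included the elongation factor gene eEF2, the mitochondrial genes mt:CoI and mt:CoIII, and 4 cytosolic ribosomal protein genes (RpL41, RpS3A, RpL5 and RpL10). The others were the chaperone genes Hsp83, Hsc70-4 and Hsp26, the chromatin gene Df31, ATPsynC for a subunit of ATP synthase, Act5C for cytoplasmic actin, and Tctp. Of each library's own top 20, 14 genes were common to all 3 libraries.

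Counts grow with the length of a transcript, so levels of different genes were compared as TPM, in which counts are divided by the length of the gene's exons and scaled to the same total in every library. On that scale the short ribosomal protein genes moved up: 11 of the 20 highest and 61 of the 100 highest genes encoded cytosolic ribosomal proteins, and 5 of the 20 lay on the mitochondrial genome. RpL41, whose exons span 320 bases, was second at 27658, 17277 and 17096 TPM, and dhd followed at 12843, 11539 and 10874 TPM. Both were highest in replicate 1. The only other genes among the 20 were me31B at 5087 ± 584 TPM, Hsp26 at 4245 ± 185 TPM and CG6770 at 4541 ± 1236 TPM. Only 8 genes were among the top 20 on both scales. Identifiers that were not paired had no exon length and no TPM, so FBgn0000556, second by CPM, was not ranked on this scale.

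Marker genes were read beside the labels of tissue, sex and strain. Germline markers were high in all 3 libraries, with a median over 7 matched genes of 205.3 TPM. The gene osk, whose mRNA founds the pole plasm at the rear of the oocyte (3R, 8935126 to 8938395, plus strand), had 1005, 1100 and 977 TPM in replicates 1, 2 and 3, and otu, which germline cysts need to develop, had 265, 300.1 and 315 TPM. The lowest of the 7 was grk, the gurken signal from oocyte to follicle cells, at 20.6, 20.1 and 19.2 TPM. The eighth listed marker, vas, stood under an identifier that was not paired and is not described.

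Follicle cell markers differed widely in level. The vitelline membrane gene Vm26Aa had 382, 343 and 218 TPM and the chorion gene Cp36 had 243, 197 and 94.3 TPM. Another eggshell marker, psd, also of the vitelline membrane, was far lower at 6.87, 4.09 and 3.14 TPM. The marker tj, a transcription factor of somatic gonad cells, had 3.34, 3.29 and 1.84 TPM, and Fas3 had 0.499, 0.824 and 0.462 TPM. Near the floor was slbo, needed for border cell migration, with 1, 10 and 4 counts, or 0.0276, 0.0704 and 0.151 TPM. The eggshell markers and tj were lowest in replicate 3. In bulk ovary RNA, fewer cells of a type and less RNA per cell cannot be told apart.

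Muscle markers, which the contractile sheath of the ovary expresses, were low: the highest, Mlc2 for a myosin light chain, had 9.94, 13.5 and 12.3 TPM. Of the fat body markers, apolpp, a lipid carrier gene, had 10.7, 6.86 and 7.72 TPM, while Lsp1alpha, Lsp2 and Fbp1 were under the floor in every library. All 4 gut markers and both spermathecal markers were under the floor in every library, the spermathecal genes Send1 and Send2 with no count at all. Testis markers were under the floor for 4 of 6 genes, with aly and betaTub85D at no more than 0.114 TPM in a library. The neuronal and hemocyte markers that were matched stayed below 1 TPM in every library.

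**Figure D2:**
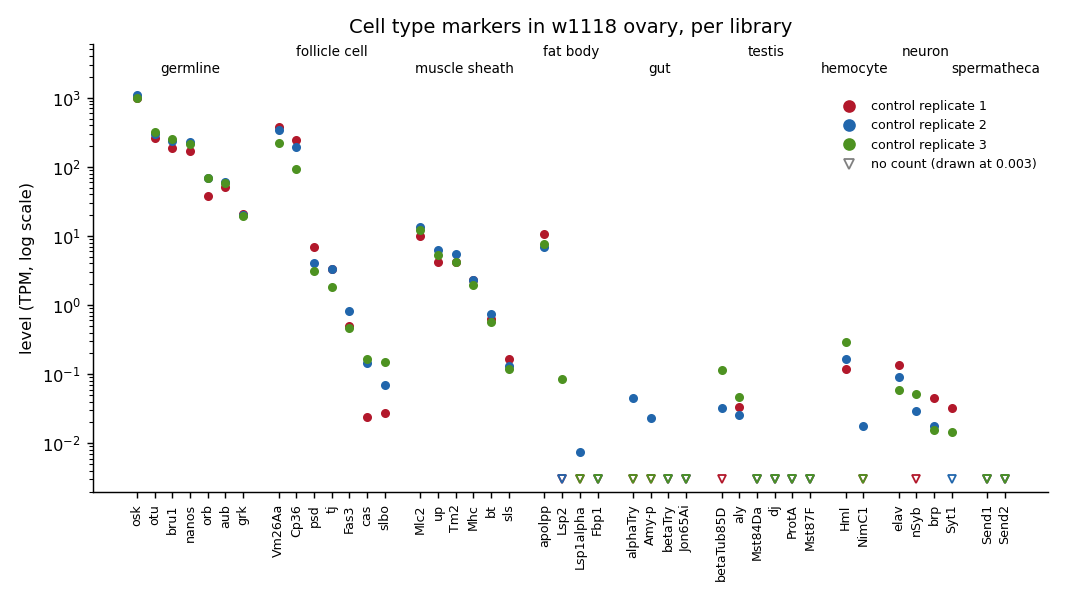
Levels of the 42 matched cell type markers (vertical axis, TPM, log scale) are drawn for each control library as 1 point per library, with genes along the horizontal axis grouped by the cell type they mark and ordered by mean level. Open triangles mark a gene with no count in that library, and points of equal value cover each other. The 7 germline markers lie between 19.2 TPM (grk, replicate 3) and about 1100 TPM (osk, replicate 2), the follicle cell markers run from the eggshell genes Vm26Aa and Cp36 down to slbo, and most gut, testis and spermathecal markers lie at 0.

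Male sex chromosome genes were close to absent. Of 12 Y-linked genes, 11 had no count, and the exception, FDY, had 8, 8 and 2 counts in replicates 1, 2 and 3. The male-specific dosage compensation RNAs lncRNA:roX1 and lncRNA:roX2 had at most 15 and 1 counts in a library. The other gene of the male-specific list, msl-2, whose protein joins the dosage compensation complex in males, had 48, 235 and 61 counts, or 2.15, 2.51 and 3.37 CPM, and passed as detected. The gene w, which the w1118 allele disrupts, had 7, 32 and 6 counts and a level of 0.255 ± 0.0226 TPM. Ovaries with an intact w gene and male tissue were not compared, so these low levels do not by themselves check strain or sex.

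Gene classes were read as their summed share of all TPM, and the largest was the cytosolic ribosome. Its 88 matched genes made up 22.6%, 20.5% and 19.1% of TPM in replicates 1, 2 and 3, and the 37 genes of the mitochondrial genome made up 6.58%, 11.8% and 11.9%. With no correction for length these shares were nearer to each other, at 9.56% and 6.71% of CPM by mean and 8.52% and 7.57% in replicate 3. Nuclear genes of oxidative phosphorylation followed at 2.11% ± 0.208, translation factors at 1.83% ± 0.0365 and the proteasome at 1.37% ± 0.0172 (SD, n = 3 each). The classes particular in name to oogenesis were smaller: oocyte patterning and mRNA localisation genes took 1.32% ± 0.0134, maternal activation genes 0.995% ± 0.0229, meiosis genes 0.387% ± 0.0263, eggshell genes 0.323% ± 0.0809 and piRNA pathway genes 0.309% ± 0.0112. Some genes are in more than 1 class. Listed genes that were not matched add nothing to these shares. For translation factors 20 of 22 listed genes were matched, so their place beside oxidative phosphorylation is uncertain.

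**Figure D3:**
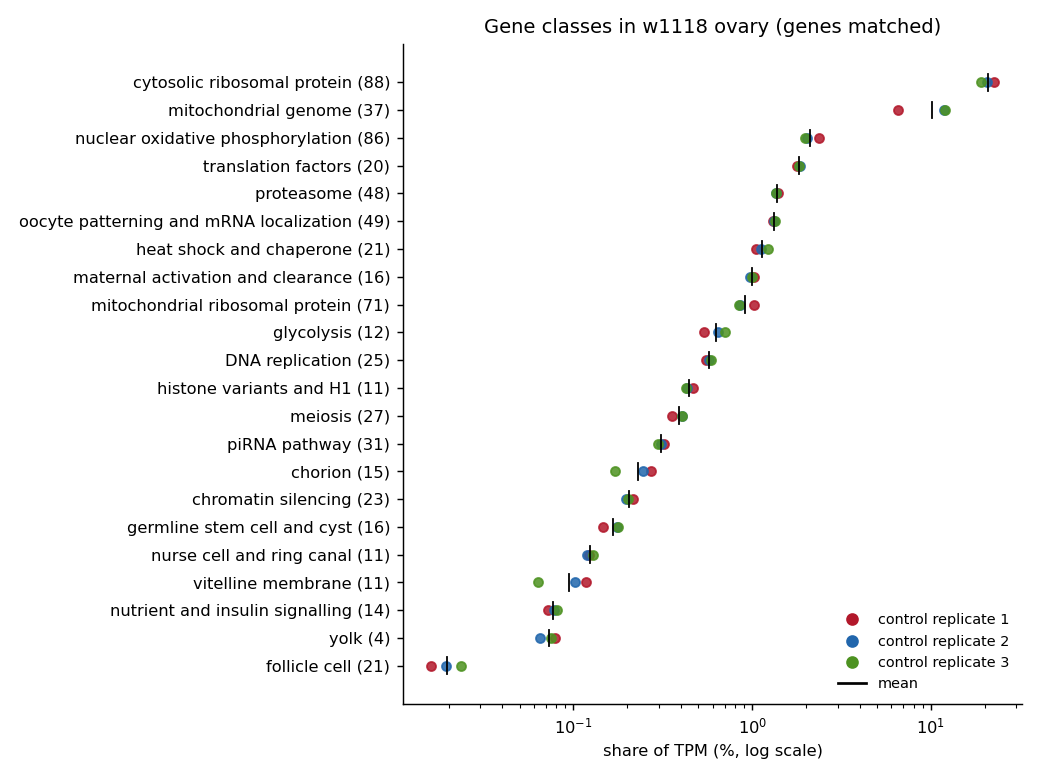
The share of all TPM taken by each gene class (horizontal axis, %, log scale) is drawn for each control library as a point, with the mean as a vertical bar and the number of matched genes in brackets. Cytosolic ribosomal protein genes lie at 19.1% to 22.6%, the libraries separate most for the mitochondrial genome, where replicate 1 lies at 6.58% against 11.8% and 11.9% in replicates 2 and 3, and for chorion and vitelline membrane genes, where replicate 3 is lowest.

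Genes that pattern the oocyte and hold or place its mRNAs were strongly present. Of 49 matched members, 45 were detected, with a median of 89.2 TPM, against 57.1 TPM over all 6610 detected genes with a length. The 4 highest were me31B, tral, osk and pgc. The mean of tral was 1256 ± 288 TPM. The gene pgc, whose product keeps early germ cells transcriptionally quiet, had 877, 892 and 851 TPM, although 46.9% of its exon bases are covered by another gene. The lower end held genes that act in follicle cells: pip, tsl and ndl, which supply the dorsoventral and terminal cues of the eggshell, had 0.0200 ± 0.000941 TPM, 0.271 ± 0.124 TPM and 0.427 ± 0.218 TPM. Of the 45 detected members 1 lay over 2-fold apart between any 2 libraries (2.22%), a share near the 3.98% of all 6764 detected genes.

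Localisation factors and their target mRNAs could be set side by side. The anterior determinant bcd had 83.6, 105 and 103 TPM, and swa, required to place bcd mRNA, had 266, 403 and 448 TPM. The double-stranded RNA-binding factor stau had 72.5, 87.6 and 107 TPM. Levels of swa and stau were lowest in replicate 1. The posterior determinant nanos had 170.3, 230.1 and 215 TPM, and its translational repressor smg, which also clears maternal mRNAs in the embryo, had 546, 639 and 734 TPM. The transport adaptors BicD and egl had 106 ± 18.3 TPM and 64.7 ± 20.1 TPM.

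The receptors and ligands of the egg's signalling systems were also measured. The torso receptor gene tor had 95.3, 111 and 115 TPM, and the Toll receptor gene Tl had 122, 128 and 126 TPM. Within the Toll pathway, the ligand gene spz stood at 152 ± 3.20 TPM, the inhibitor gene cact at 293 ± 18.3 TPM and the transcription factor gene dl at 41.7 ± 6.53 TPM. The proteases upstream of the ligand were lower, with 65.1 ± 10.5 TPM for ea, 18.6 ± 3.48 TPM for snk and 13.7 ± 0.259 TPM for gd.

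The germline stem cell and cyst genes had a median of 34.3 TPM over 15 detected members of 16 matched. The 4 highest were zpg, the germline gap junction gene, at 402 ± 31.3 TPM, otu at 293 ± 25.8 TPM, the RNA-binding repressor gene bru1 at 225 ± 35.5 TPM and nanos at 205 ± 31.2 TPM. The differentiation factor bam had 32.2, 35.2 and 33.4 TPM, while its partner bgcn had 0.148, 0.132 and 0.127 TPM and was the member below 1 CPM. Of the genes for ring canals and nurse cell actin, all 11 were detected. They were led by chic for profilin at 565 ± 111 TPM, arm for beta-catenin at 209 ± 77.6 TPM, sn for fascin at 129 ± 12.2 TPM and the kinase gene Src64B at 123 ± 2.97 TPM. Long genes among them were low in replicate 1: cher, encoding the ring canal filamin, had 6.37, 14.9 and 20.9 TPM in replicates 1, 2 and 3.

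The piRNA pathway, which silences transposons in the germline with small RNAs bound to Piwi proteins, was present nearly whole. All but 1 of the 31 matched genes were detected, at levels between 4.11 and 303 TPM. The 4 highest were Boot, an export factor for piRNA precursors, with 303 ± 36.9 TPM, the nuage gene krimp with 242 ± 20.2 TPM, squ with 216 ± 50.1 TPM and AGO3 with 184 ± 10.9 TPM. The cluster transcription genes rhi, del and moon had 103, 83.0 and 82.5 TPM, 200.3, 175 and 166 TPM and 131, 113 and 96.9 TPM in replicates 1, 2 and 3, whereas cuff, which acts with rhi and del, had 16.3, 14.2 and 12.4 TPM. The undetected member was fs(1)Yb, which is known for its role in somatic cells of the ovary, at 0.110, 0.269 and 0.240 TPM.

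Levels of meiotic genes ranged widely. Of the 4 highest, mtrm, which binds and inhibits Polo kinase in the arrested oocyte, had 1148, 1338 and 1230.3 TPM, polo itself had 601, 629 and 599 TPM, and the next were CycB3 at 384 ± 57.7 TPM and gwl, the Greatwall kinase gene, at 270.3 ± 12.3 TPM. Several genes that act in early prophase were lower. The synaptonemal complex gene c(3)G had 81.0 ± 8.11 TPM and c(2)M had 27.6 ± 1.88 TPM, while the double-strand break genes mei-W68 and mei-P22 had 1.13 ± 0.278 TPM and 5.99 ± 1.55 TPM. Cohesion gene ord was at 0.0544 ± 0.0154 TPM and sunn at 0.0495 ± 0.0430 TPM. In all, 20 of 27 matched meiosis genes were detected, and mei-217 was listed at 0 with all its exon bases covered by mei-218.

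Genes of egg activation and of the replication machinery that the early embryo inherits were abundant. In the maternal activation list, 15 of 16 genes were detected, and gnu and smg followed me31B and tral at its top. The 3 subunits of the Pan gu kinase, which switches on maternal translation at activation, had 1243, 975 and 932 TPM for gnu, 282, 239 and 219 TPM for plu and 128, 162 and 167 TPM for png. The activating subunit gene gnu was the highest of the 3 in every library. The poly(A) polymerase gene wisp, which lengthens maternal mRNA tails, had 243, 343 and 408 TPM, and zld, the activator of the zygotic genome, had 21.0, 24.0 and 31.6 TPM. Of 25 matched DNA replication genes, 24 were detected with a median of 156.8 TPM. They were led by the ribonucleotide reductase gene RnrS at 879 ± 70.3 TPM, PCNA at 811 ± 21.7 TPM, geminin at 624 ± 32.4 TPM and RnrL at 461 ± 30.4 TPM.

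Histone genes showed a contrast between replacement variants and the tandem cluster. The variant genes were high, with His2Av at 1654, 1578 and 1511 TPM and the early embryonic linker histone gene BigH1 at 721, 696 and 705 TPM, and Slbp, whose product binds histone mRNA ends, stood at 328 ± 19.1 TPM. Of the 111 genes of the replication-dependent cluster, 106 had no count. These genes are near-identical copies, and reads that align to many places were left out of gene counts, so their level is uncertain.

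Many eggshell genes differed between the 3 libraries. The 26 matched chorion and vitelline membrane genes made up 0.390%, 0.345% and 0.233% of TPM in replicates 1, 2 and 3. Their share was 0.289% without replicate 1 and 0.368% without replicate 3. Over 2-fold differences between libraries were found for 11 of 15 detected chorion genes and 5 of 10 detected vitelline membrane genes, against 3.98% of all detected genes.

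The 4 highest genes of the chorion list by mean were Pxt, a peroxidase gene, Cp15, Cp19 and Cp36. Pxt had 777, 913 and 835 TPM and was lowest in replicate 1, not in replicate 3. Its mean of 842 TPM is a large part of the chorion list's 0.228% of TPM. The chorion and eggshell shares thus include a gene ordered unlike the Cp genes that follow. Cp15 had 803, 539 and 393 TPM, and Cp18, from the same amplified cluster on 3L, had 201, 143 and 34.4 TPM, highest in replicate 1 and lowest in replicate 3. In the cluster on the X, Cp36 had 243, 197 and 94.3 TPM and Cp38 had 278, 158 and 85.9 TPM. The X-linked genes Cp7Fa, Cp7Fb and Cp7Fc were low and ordered alike, with 17.7, 7.85 and 2.77 TPM for Cp7Fb.

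Vitelline membrane genes were led by Vm26Aa and by Vm34Ca, which had 435, 336 and 156 TPM, followed by Vm26Ab at 157 ± 27.7 TPM and clos at 43.8 ± 2.86 TPM. The vitelline genes fs(1)N, fs(1)M3 and clos were even across libraries, at 24.0, 30.9 and 30.0 TPM for fs(1)N. The products of these 3 genes are known to come from the germline, whereas the Vm genes are expressed in follicle cells. Yolk protein genes, made by follicle cells and the fat body, had 213, 96.2 and 101 TPM for Yp1, 255, 187 and 167 TPM for Yp2 and 129.8, 76.2 and 87.2 TPM for Yp3. The oocyte's yolk receptor gene yl had 185, 289 and 397 TPM, lowest in replicate 1 and highest in replicate 3.

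The regulatory genes listed for follicle cells took 0.0196% ± 0.00377 of TPM, and 12 of 21 were detected. The highest were genes that other cells also use: usp at 83.9 ± 19.8 TPM, Delta at 35.3 ± 8.94 TPM, shg for E-cadherin at 31.6 ± 3.79 TPM and EcR for the ecdysone receptor at 13.6 ± 4.22 TPM. The stalk cell and anterior genes cas, slbo and upd1 were each at or below 0.167 TPM in every library. Egfr, the receptor of the gurken signal, had 1.04, 0.844 and 0.606 TPM.

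Core and ATPase subunits of the proteasome lay close together, and those of other complexes ranged more widely. The 6 detected alpha subunits of the 20S proteasome, the core that degrades proteins, ranged from 573 TPM (Prosalpha3) to 708 TPM (Prosalpha2) by mean, and the 6 detected ATPase subunits of the 19S cap from 286 TPM (Rpt4) to 348 TPM (Rpt1). The class was led by Prosbeta4 at 723 ± 23.9 TPM, Prosalpha2, Prosalpha6 and Prosalpha5. The median of the detected alpha subunits was 637.9 ± 11.8 TPM and that of the ATPases 305.5 ± 10.1 TPM (SD, n = 3 each). Prosalpha1 was listed at 0 in all 3 libraries although the proteasome needs this subunit and only 1.75% of its exon bases are covered by another gene. Prosalpha1R, which lies close by on 2R, was also at 0. Reads that align to many places were left out of gene counts, so the level of Prosalpha1 is uncertain. Whether this pair shares such reads was not tested. Apart from Prosalpha1, the proteasome genes without a count, of 14 in all, are relatives whose symbols carry a T or an R, such as Prosbeta2R1 and Rpt4R.

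The small and large cytosolic ribosomal subunits had close medians, at 2382 ± 188 and 2206 ± 170.7 TPM over detected genes. Single genes ranged widely by mean, from 111 TPM (RpS15Ab) to 5924 TPM (RpS27A) in the small subunit and from 144 TPM (RpLP0-like) to 20677 TPM (RpL41) in the large. Mitochondrial ribosomal genes stood far lower, at 125.8 ± 8.12 TPM for the small and 122.7 ± 8.77 TPM for the large subunit. They were led by mRpL12, mRpS7, mRpS18A and mRpL30, with 363 ± 26.3 TPM for mRpL12. For the respiratory chain, medians of detected nuclear subunits were 160.3 ± 15.9 TPM in complex I, 123.6 ± 10.4 in complex II, 258.1 ± 4.61 in complex III, 537.5 ± 86.6 in complex IV and 559.3 ± 62.2 in ATP synthase. Complex I genes ranged from 18.7 TPM (ND-MWFE) to 769 TPM (ND-MLRQ) by mean. The highest genes were ATPsynC at 2474 ± 522 TPM, ATPsynbeta at 1173 ± 62.8 TPM, COX7B at 892 ± 136 TPM and ATPsynCF6 at 778 ± 149 TPM. ND-MNLL and UQCR-14 were listed at 0 and are fully covered by other genes. The other 12 nuclear genes without a count are relatives with an L at the end of the symbol or before its number, such as ND-20L and COX6AL2. Among these, COX5BL is also fully covered and COX6AL2 is covered over 67.0% of its exon bases, so their level is uncertain.

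Transcripts of the mitochondrial genome divided the libraries. The cytochrome oxidase gene mt:CoI had 2349, 6774 and 6571 TPM in replicates 1, 2 and 3, and mt:Cyt-b had 1043, 4445 and 4926 TPM. The complex I gene mt:ND4 had 64.2, 506 and 552 TPM. In each, replicate 1 lay well below the others, whereas mt:CoII had 3580.2, 3716 and 3859.7 TPM and differed little. Of the 12 detected mitochondrial genes, 7 lay over 2-fold apart between libraries (58.3%), against 3.98% of all 6764 detected genes. The mitochondrial share of TPM was 11.9% without replicate 1.

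Of 22 listed translation factors, 20 were matched and all of these were detected. They were led by Tctp at 2577 ± 116 TPM, eEF2 at 2576 ± 246 TPM, eEF1gamma at 1887 ± 203 TPM and Rack1 at 1711 ± 14.8 TPM. A listed gene without a match had no TPM, so this order holds among matched genes only. Chaperone genes were led by the small heat shock gene Hsp26 at 4458, 4126 and 4151 TPM, then Hsc70-4 at 1869.8 ± 278 TPM, Hsp83 at 1769 ± 387 TPM and Hsp27 at 1331 ± 54.9 TPM. The inducible genes Hsp22 and Hsp70Ba were listed at 0, the first of these fully covered by another gene. Reads that align to many places were left out of gene counts, so the 0 of Hsp70Ba, a multicopy gene, is uncertain too. In glycolysis, Gapdh2 at 2193 ± 108 TPM and Gapdh1 at 931 ± 113 TPM stood above Pglym78 at 668 ± 81.6 TPM and Tpi at 586 ± 120.3 TPM. Silencing genes were led by Su(var)205, which encodes HP1a, at 613 ± 178 TPM, with pho at 223 ± 27.5 TPM, Su(var)2-10 at 204 ± 6.95 TPM and piwi at 108 ± 5.75 TPM. In nutrient signalling, Rheb had 192 ± 15.2 TPM, Pi3K21B 103 ± 16.0 TPM, Akt 92.2 ± 7.05 TPM and Tsc1 65.2 ± 18.0 TPM.

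The lists for other tissues were read beside the 47.5% of all protein-coding genes that were detected. The muscle list stood above that share, with 14 of 20 genes detected, led by Tm1 for tropomyosin at 111 ± 5.68 TPM and Act57B at 27.0 ± 3.26 TPM. Among them were Mhc, the myosin heavy chain gene, at 2.21 ± 0.230 TPM, the light chain gene Mlc1 at 8.38 ± 0.795 TPM and up, for troponin T, at 5.30 ± 1.08 TPM. The list's summed level was 671 to 790.0 CPM, most of it from Tm1 alone at 674, 589 and 548 CPM in replicates 1, 2 and 3. The hemocyte list lay close to that share, with 6 of 13 detected, led by crq, a scavenger receptor gene, at 242, 254 and 238 TPM in replicates 1, 2 and 3, while Hml and NimC1 were below 1 TPM. The other lists lay below it. In the gut list 0 of 32 genes were detected and 29 were under the floor in every library, and the list's summed level was 0.224 to 0.277 CPM. How far the loss of reads that align to many places lowered its similar members, such as betaTry and gammaTry, was not tested. In the testis list 5 of 31 were detected, led by twe, a phosphatase that also acts in female meiosis, at 193 ± 11.6 TPM. The neuronal list had 4 of 15 detected, with unc-13 highest at 18.7 ± 1.34 TPM. The fat body list had 5 of 15 detected, with Mtp at 59.6 ± 6.10 TPM. The immune list had 4 of 30, led by key at 115 ± 6.94 TPM and Rel at 42.0 ± 0.947 TPM, and the antimicrobial peptide genes CecB, CecC and Listericin had no count. The female tract list had 1 of 12, Hr39 at 21.1 ± 2.91 TPM.

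Many fly genes come in pairs or small families, and the share of each member shows which copy the ovary used. In 40 families every member was paired, and none without a count was covered by another gene over at least 95% of its exon bases. Of these, 1 member held at least 99% of the family's TPM in 14, between 75% and 99% in 8 and less than 75% in 18. Reads that align to many places were left out of gene counts. How far this shifted the shares of members with similar sequences was not tested. The leading member was the same in each of the 3 libraries in 39 of 40 families. It was also the same in 38 of 40 under other measures of gene length, the exceptions being the TBP and yolk protein families.

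**Figure D4:**
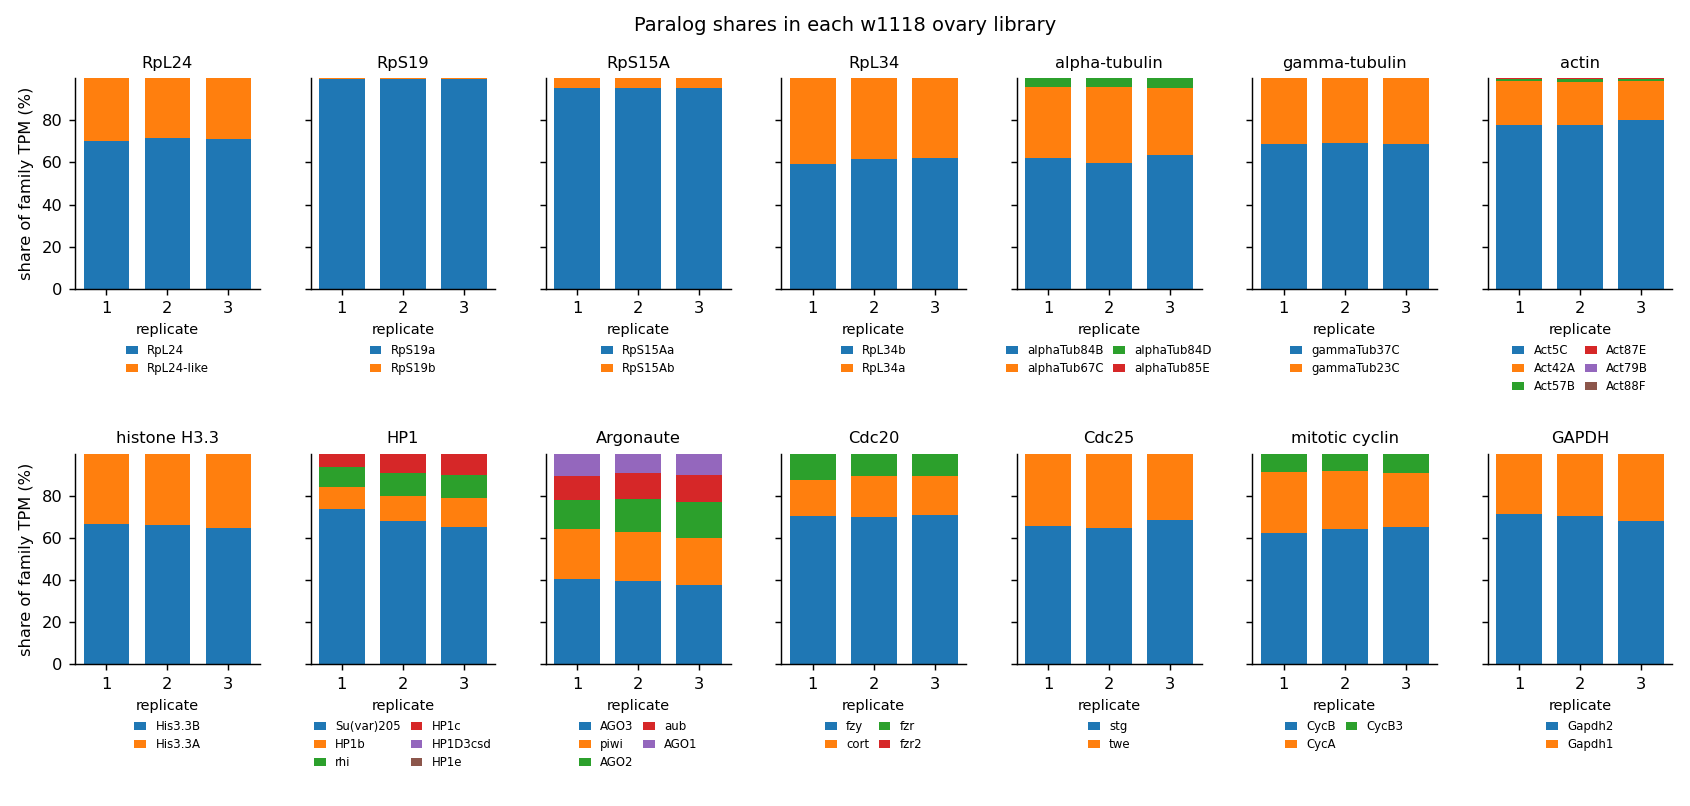
The share of the family's TPM held by each member (vertical axis, %) is stacked for each control library (horizontal axis, replicates 1 to 3) in 14 of the 40 families described. The split repeats in the 3 libraries, with alphaTub67C at 32.0% to 36.0%, gammaTub37C at 68.9% to 69.2% and Su(var)205 of the HP1 family at 65.3% to 73.7%.

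Among ribosomal protein paralogs, the copy in use differed by family. RpS19a held 99.9% ± 0.0291, leaving RpS19b at 1.12 ± 0.380 TPM. RpL22 held 100% ± 0.0546, leaving RpL22-like with 3, 6 and 0 counts in replicates 1, 2 and 3. RpS15Aa held 95.5% ± 0.104 and RpL34b 61.1% ± 1.43, with RpL34a at 842 ± 33.5 TPM. RpS28b, RpL37-1 and RpL10Ab held all or nearly all of their families. RpLP0 held 82.1% ± 2.09 against RpLP0-like, and RpL24 held 71.1% ± 0.629 against RpL24-like.

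RpS14a and RpS14b, which are near-identical tandem copies, are uncertain, because the counting cannot place reads they share. RpS14a held 47.3%, 62.1% and 62.9% in replicates 1, 2 and 3, so the leading copy changed between libraries.

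The alpha- and gamma-tubulin families combined a general copy with a maternal one. The general alpha-tubulin gene alphaTub84B had 1172, 1395 and 1726 TPM, and alphaTub67C, the maternal alpha-tubulin (3L, 9681268 to 9683370, plus strand), had 633, 838 and 866 TPM. The maternal copy thus held 33.9% ± 2.01 of alpha-tubulin TPM, with alphaTub84D at 4.20% ± 0.117 and alphaTub85E near 0. For gamma-tubulin the maternal copy led: gammaTub37C held 69.0% ± 0.171, with 147, 168 and 165 TPM, against 66.0, 74.6 and 74.6 TPM for gammaTub23C. Of the actins, Act5C held 78.8% ± 1.46 and Act42A 19.8% ± 1.47, and the muscle actin genes Act57B, Act87E, Act79B and Act88F shared the rest, with Act57B at 1.40% ± 0.104. Lam held 87.3% ± 1.09 against LamC.

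Cell cycle regulators of the female germline were present beside the general copies. The Cdc20 family held fzy at 70.6% ± 0.343, the meiosis-specific activator cort at 18.4% ± 1.01 and fzr nearly all the rest, with 42.9, 37.0 and 37.7 TPM. Of the Cdc25 phosphatases, stg held 66.4% ± 1.93 and the meiotic phosphatase twe 33.6% ± 1.93. The mitotic cyclins were CycB at 64.2% ± 1.42, CycA at 27.3% ± 1.63 and CycB3 at 8.51% ± 0.401, with CycB at 2406, 3068 and 3229 TPM in replicates 1, 2 and 3. Pp1-87B held 71.0% ± 1.22 of the catalytic subunits of protein phosphatase 1, Pp1alpha-96A 19.5% ± 0.850 and flw 9.48% ± 0.390.

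Small RNA and chromatin families were shared among several members. AGO3 led the Argonautes with 39.3% ± 1.39, before piwi at 23.1% ± 0.873, AGO2 at 15.6% ± 1.77, aub at 12.1% ± 0.652 and AGO1 at 9.80% ± 0.857. The lowest members were close, with 51.2, 61.1 and 57.7 TPM for aub against 47.1, 43.3 and 46.6 TPM for AGO1. Their order rested on the length correction, since CPM were 90.1, 100.3 and 91.4 for aub and 227.8, 195.2 and 202.8 for AGO1. Dcr-2 held 58.1% ± 5.33 and Dcr-1 the rest. Among HP1 proteins, Su(var)205 held 69.0% ± 4.29, HP1b 12.2% ± 1.46, the germline protein gene rhi 10.3% ± 0.909 and HP1c 8.48% ± 1.97. His3.3B held 65.9% ± 1.14 against His3.3A.

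In the remaining families a testis copy usually had few counts or none. The testis proteasome genes Prosalpha3T, Prosalpha4T1, Prosalpha4T2 and Prosalpha6T had no count, and the testis TAF genes can and nht had at most 1 count in a library. Taf12L was an exception at 11.7, 9.39 and 9.79 TPM, or 5.75% ± 0.285 of its family. eIF4E1 held 94.1% ± 0.506 of the cap-binding family and eIF4EHP 5.79% ± 0.490, while eIF4G1 held 88.8% ± 2.69 against eIF4G2. Hsc70-4 held 74.8% ± 1.85, the endoplasmic reticulum member Hsc70-3 20.4% ± 1.94 and the mitochondrial member Hsc70-5 4.83% ± 0.216. Gapdh2 held 70.3% ± 1.70, bru1 99.8% ± 0.0464 and orb 94.4% ± 1.03 of their families. Secreted Idgf proteins came from Idgf6 at 50.4% ± 1.84, Idgf4 at 42.2% ± 1.97 and Idgf2 at 7.03% ± 0.201, with Idgf1, Idgf3 and Idgf5 each under 1%.

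The genes derived from PIF transposases, which the series is about, were measured in these control ovaries too. DPLG4 (CG7492, 3L, 7651866 to 7654752, minus strand) had 77.3, 99.1 and 115 TPM and DPLG1 (CG12253, 2L, 10987806 to 10989241, plus strand) had 101, 87.7 and 80.0 TPM. DPLG3 (CG32095) had 59.0, 63.6 and 59.7 TPM, and DPLG2 (CG32187) had 0, 3 and 0 counts in replicates 1, 2 and 3. The order of DPLG4 and DPLG1 was not the same in every library.

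Detection and level also varied with the chromosome. Protein-coding genes were detected more often on the X, at 1169 of 2131 (54.9%), than on the autosomes, at 5328 of 11516 (46.3%), of which the small chromosome 4 had 57 of 79 (72.2%). None of 20 Y-linked coding genes was detected. The detected X genes had a lower median level, at 0.777, 0.822 and 0.885 times that of autosomal genes in replicates 1, 2 and 3, so this ratio moved with the library.

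Transcripts without a protein were few among detected genes, with 82 of 2583 annotated non-coding RNA genes, 14 of 269 pseudogenes, 4 of 31 small nuclear RNA genes and 1 of 258 small nucleolar RNA genes. After mt:lrRNA the highest by TPM were the snoRNA host gene Uhg3 at 348, 169 and 162 TPM, snRNA:U12 of the minor spliceosome at 339, 155 and 168 TPM and the pseudogene CR14033 at 117, 134 and 125 TPM. The other 6 of the top 10 were snRNA:U11, RNaseMRP:RNA, snoRNA:Or-aca5, lncRNA:CR43685, CR15345 and snoRNA:185. Some short non-coding RNAs were higher in replicate 1: RNaseMRP:RNA had 69.7, 1.09 and 1.22 CPM and small nucleolar RNAs summed to 249.0, 25.7 and 22.8 CPM in replicates 1, 2 and 3. Small nuclear RNAs summed to 160.4, 46.5 and 47.0 CPM. In contrast, snRNA:U11 had 16.5, 17.1 and 16.4 CPM, and transfer RNAs summed to 0.449, 0.352 and 0.443 CPM.

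Agreement of the libraries was close for most genes, with replicate 1 farthest from the others. Across genes, which are not independent replicates, log2 CPM correlated at 0.982 between replicates 1 and 2, 0.969 between 1 and 3, and 0.995 between 2 and 3 (Pearson). The median gene lay 1.18-fold, 1.27-fold and 1.09-fold apart in these pairs. Replicate 1 had 43 genes over 2-fold above replicate 2 (0.636% of 6764) and 20 over 2-fold below it (0.296%). Against replicate 3, it had 107 above (1.58%) and 146 below (2.16%). Replicate 2 had 19 above (0.281%) and 2 below replicate 3 (0.0296%). Over all pairs, 269 of 6764 detected genes (3.98%) lay over 2-fold apart, but only 21 did without replicate 1 and 72 without replicate 3. The common biological coefficient of variation, the typical spread of a gene beyond counting error, was 0.179 with all 3 libraries and 0.0895 without replicate 1.

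Part of this spread followed the length of genes. The deviation of a gene from its mean over the libraries went down with exon length in replicate 1 (Spearman's rho -0.613 over 6610 genes). It went up in replicates 2 and 3 (0.475 and 0.562). The deviations of a gene cancel out over the libraries, so these opposite trends are not separate observations. Genes were split by exon length into 10 groups of like size. In the group with the shortest exons, the median deviation was 0.31 in replicate 1, -0.10 in replicate 2 and -0.21 in replicate 3 on the log2 scale, and in the group with the longest it was -0.30, 0.06 and 0.22. After a smooth trend with length was removed from each library, 158 of the 6610 genes lay over 2-fold apart, among them 10 of the 15 chorion genes and 8 of the 12 mitochondrial genes. The part of RNA quality or library preparation in these differences was not tested.

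**Figure D5:**
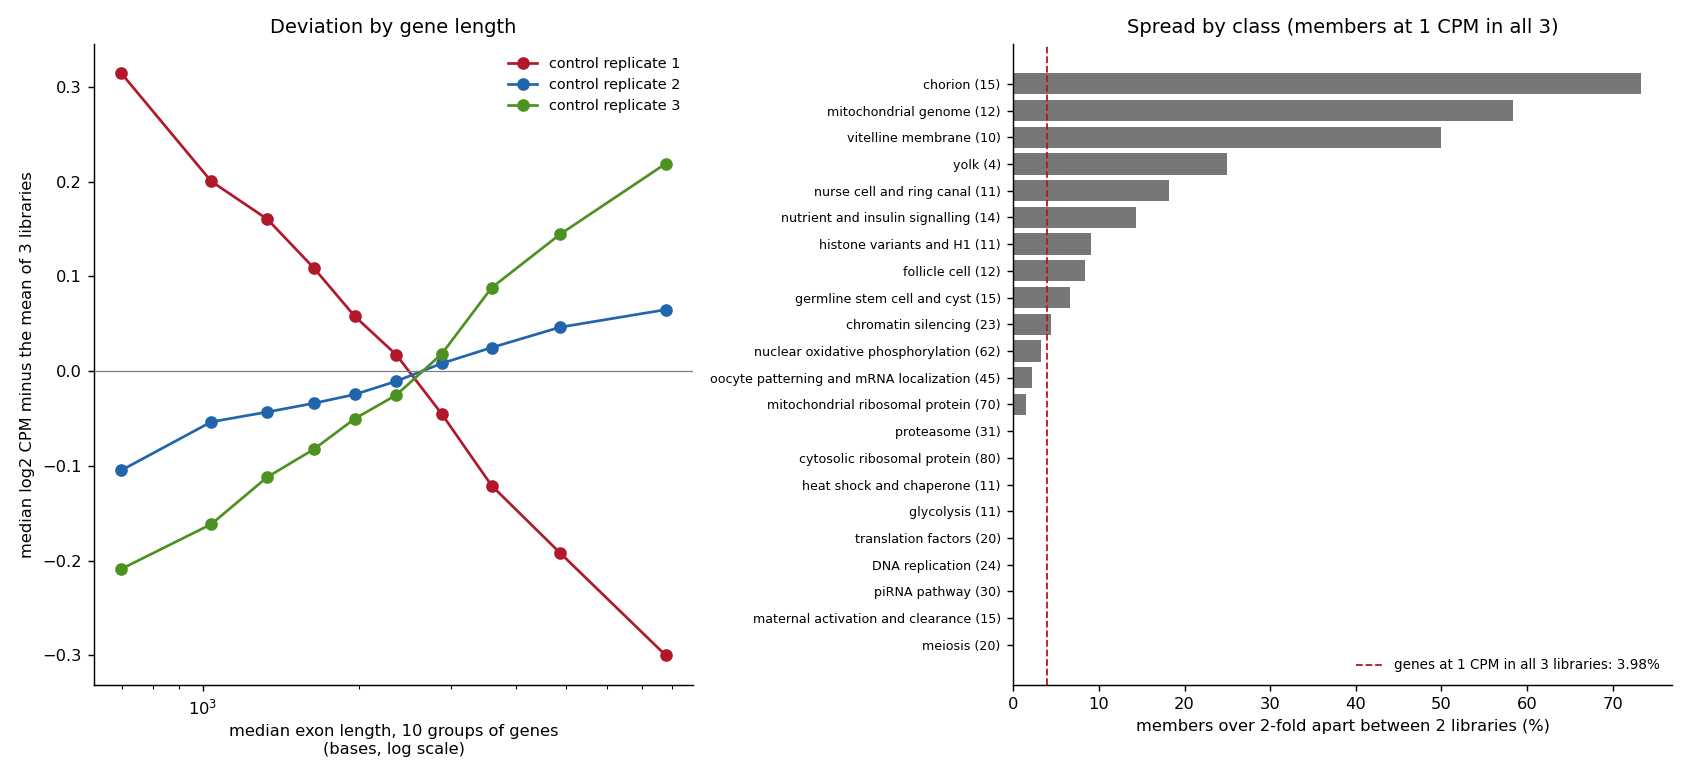
On the left, the median deviation of log2 CPM from the mean of the 3 control libraries (vertical axis) is drawn against the median exon length of each of 10 groups of genes (horizontal axis, bases, log scale), with 1 line for each library. The line of replicate 1 falls from 0.31 to -0.30 while those of replicates 2 and 3 rise. Deviations of a gene cancel out over the libraries, so the lines are not independent. On the right, bars give the percentage of each class's detected members that lay over 2-fold apart between any 2 libraries (number of members in brackets), with the 3.98% of all detected genes as a dashed line; chorion, mitochondrial genome and vitelline membrane genes lie far above it.

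The 10 genes with the largest spread among those with a mean of at least 10 CPM were mostly of groups already described. RNaseMRP:RNA, the unnamed FBgn0085799 at 379, 7.40 and 6.53 CPM and the ribosomal pseudogene 28SrRNA-Psi:CR40596 at 31.9, 1.11 and 1.16 CPM were highest in replicate 1. The mitochondrial genes mt:ND4, mt:ND3 and mt:ND5 were lowest in replicate 1, with 50.2, 369 and 388 CPM for mt:ND4. The eggshell genes Cp18, Cp7Fb, Cp7Fc and dec were highest in replicate 1 and lowest in replicate 3, with 27.3, 14.3 and 4.87 CPM for dec. Spread was little related to level above 10 CPM: 3.21% of genes from 10 to 100 CPM, 2.99% from 100 to 1000 CPM and 2.34% above 1000 CPM lay over 2-fold apart, against 10.7% below 10 CPM.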

How the data were processed

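RNA was sequenced from control ovaries of w1118 flies in 3 libraries. The deposited values are raw counts per gene, 1 table per library. FastQC, HTSeq, DESeq2 and STAR 2.5 are named in the submitters' processing notes, together with 2 builds, GRCh37 and BDGP6. How GRCh37 was used, which annotation release and which strand setting are not stated there. The 5 summary lines stayed out of library sizes; they held 72.0%, 12.0% and 11.5% of the totals of replicates 1, 2 and 3.

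CPM is counts over a library's total gene counts. TPM divides counts by the union of a gene's exons in Ensembl release 115 (BDGP6.54) and scales to a common total over genes with a length. The pseudocount was 0, since logs were taken only of genes at 1 CPM or more in all 3 libraries. Dispersion was estimated with edgeR 4.0.16 on TMM sizes in R 4.3.3 with an intercept alone; on simulated counts the estimate came back close to what was put in. Other steps used Python 3.11.15.

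There is 1 group, so no test was run: a sign-flip test over 3 libraries cannot go below 0.25. Spread is given as SD (n = 3). Members, gene lists, paralog families and rules were chosen with earlier results of these data known. Genes named are the 20 highest by CPM and by TPM, the 4 highest of each class and its members under 3 counts. Also named are described paralogs, the 10 most variable, the 10 highest without a protein, and the genes listed for sex and strain. Further members of a list were named for their role after their values were seen. Symbols whose identifiers were not paired (vas and others), and 7 paralog families with such a member or one covered by another gene and without a count, are not described, and 1 paralog pair that was planned is not reported here. Alternatives were other scalings, filters and lengths, and leaving out each library.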

Additional observations from a re-analysis of the deposited data

How the results depend on the processing

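Of 8 summary results, the count of detected genes stayed between 6764 and 7197 under every scaling and filter tried. The eggshell and alphaTub67C shares moved by less than their SD under every alternative that kept all libraries. Leaving out 1 library cannot move such a mean by 1 SD and so does not test it. Without the genes of the mitochondrial genome, the top 100 genes held 20.6% of counts and ribosomal protein genes 23.0% of TPM. With no correction for length, ribosomal protein genes held 9.56% and mitochondrial genes 6.71% of CPM. The coefficient of variation was 0.216 with no filter on low counts, 0.180 with DESeq2 size factors, and 0.0895 to 0.237 when 1 library was left out. Genes over 2-fold apart numbered 316 with TMM sizes, 328 with DESeq2 size factors, 168 from 10 CPM, 158 after removing the length trend, and 21 to 253 when 1 library was left out, lowest without replicate 1. The causes of these shifts beyond fewer genes or libraries were not tested.

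Of 60 shares of single classes and leading paralogs, 40 moved by more than their SD with no length correction, 15 with the longest transcript, and 9 with only the exon bases that no other gene overlaps, a measure added after the data were seen. Leaving out any 1 library moved none of them by more than 1 SD. With 3 libraries this is fixed by arithmetic for any value, so it tests nothing. Tbp held 65.2% of its family, against 28.7% with no length correction, where Trf2 led. Yp2 held 47.2%, against 34.9% on bases not overlapped, where Yp1 led. No paired analysis was possible because there is only 1 group. Depth limits statements on genes under 0.166 CPM in the shallowest library.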
